A study of Mus musculus with 12 samples.

Results

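Epithelial transport genes are described here, 9 of the 55450 genes in the deposited expression table, chosen by symbol as pendrin, chloride and sodium transport genes and found by the identifiers that map to those symbols. They are the anion exchanger Slc26a4 (pendrin), the chloride transporter Slc26a9 and the chloride channels Cftr and Ano1. With them are the 3 subunits of the epithelial sodium channel ENaC (Scnn1a, Scnn1b and Scnn1g) and the beta1 subunit of the Na,K-ATPase (Atp1b1). The last is the sodium, potassium and chloride cotransporter NKCC1 (Slc12a2). All 9 passed the filter on low counts, as did 20612 genes in total. RNA was sequenced from alveolar type II (AT2) cells of C57BL/6 mice aged 6 to 8 weeks, grown on collagen I and treated for 24 h with cockroach extract at 50 µg/ml (abbreviated CRE, which is not the Cre recombinase) or with PBS alone. The cells of the AhRfl/fl groups carried floxed alleles of the aryl hydrocarbon receptor gene Ahr without a recombinase, and the cells of the Sftpc-Cre;AhRfl/fl groups carried the same floxed alleles with Cre under the surfactant protein C promoter, so that floxed alleles were common to all 4 groups. The study points out that Sftpc may be active in cells other than AT2 cells. The comparisons address how the extract changed these genes and whether that change differed between the genotypes. No group carried Cre without floxed alleles, so the deletion and the presence of Cre cannot be told apart in these comparisons. Each group had 3 libraries: AhRfl/fl with PBS, AhRfl/fl with CRE, Sftpc-Cre;AhRfl/fl with PBS and Sftpc-Cre;AhRfl/fl with CRE. No source says that the 3 libraries of a group came from separate mice, so the p-values below measure the spread between these libraries, which may be technical.

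The alveolar surface is covered by a thin liquid layer whose depth and acidity depend on salt transport. ENaC in the apical membrane lets sodium into the cell and the Na,K-ATPase in the basal membrane pumps it out, so that water is absorbed, while CFTR, ANO1 and SLC26A9 pass chloride and NKCC1 loads chloride from the blood side. Pendrin exchanges chloride for bicarbonate and other anions, and it is known in airway epithelium as a gene induced by the cytokines IL-4, IL-13 and IL-17 and by bacterial infection.

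Total counts were between 68878065 and 80935797 per library, and 3 counts, the smallest level read as above 0, stood for 0.0371 to 0.0436 counts per 1e6 (CPM). Levels in CPM below are counts scaled by edgeR's trimmed mean of M-values (TMM). The deposited FPKM values, which also divide by gene length, are used wherever levels of different genes are compared. The label of the cells was compared with marker genes: the AT2 marker Sftpc had 2772 to 5465 FPKM, and the club cell marker Scgb1a1 had 7342 to 15747 FPKM and was above Sftpc in 12 of 12 libraries. The other club cell markers were far lower, at 0.353 to 92.5 FPKM (Scgb3a1), 2.13 to 3.77 FPKM (Scgb3a2) and 4.69 to 8.75 FPKM (Cyp2f2). The other AT2 markers had 3.29 (Etv5) to 394 FPKM (Sftpb). The whole-gene count of Ahr did not separate the genotypes (44.0 ± 1.10 CPM in AhRfl/fl and 45.2 ± 4.73 CPM in Sftpc-Cre;AhRfl/fl cells with PBS, SD, n = 3), and such a count does not show whether an exon was removed. Cyp1b1, a classical AhR target, was lower in the Sftpc-Cre;AhRfl/fl libraries, at 44.7 ± 13.7 against 384 ± 34.6 CPM with PBS (log2 fold change −3.10, edgeR adjusted p = 8.8e-04). Markers of leukocytes (Ptprc, Coro1a and Cd52) summed to 2.31 to 59.6 FPKM and were highest in replicate 1 of each group. In such bulk samples fewer cells of a type and less RNA per cell cannot be told apart.

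Promoter sequences of 5 members are given first. RefSeq windows on GRCm38.p6 were at hand for 7 of the 9 members (not for Scnn1a and Slc12a2), and the 250 bases before each annotated start were searched on both strands for GCGTG, the core of the element that AhR binds with ARNT, and for TTCNNNGAA, the element type of STAT factors. GCGTG occurs in 28.2% and TTCNNNGAA in 7.02% of the 32851 windows of the same length. Slc26a4 is shown because its change was the largest of the 9, Scnn1g and Scnn1b because they are neighbours that both fell in the fit paired by replicate number below, and Atp1b1 and Cftr because their windows held GCGTG, which stands in capitals. Each sequence is written 5′ to 3′ in the direction of its gene, from chr12:31559985-31560234 (minus strand) for Slc26a4, chr7:121734229-121734478 (plus) for Scnn1g, chr7:121864788-121865037 (plus) for Scnn1b, chr1:164458356-164458605 (minus) for Atp1b1 and chr6:18170437-18170686 (plus) for Cftr.
Slc26a4: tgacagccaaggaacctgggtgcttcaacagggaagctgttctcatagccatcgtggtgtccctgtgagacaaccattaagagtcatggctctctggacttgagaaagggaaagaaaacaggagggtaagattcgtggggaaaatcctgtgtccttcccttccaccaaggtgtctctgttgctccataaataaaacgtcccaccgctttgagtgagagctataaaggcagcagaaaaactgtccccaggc
Scnn1g: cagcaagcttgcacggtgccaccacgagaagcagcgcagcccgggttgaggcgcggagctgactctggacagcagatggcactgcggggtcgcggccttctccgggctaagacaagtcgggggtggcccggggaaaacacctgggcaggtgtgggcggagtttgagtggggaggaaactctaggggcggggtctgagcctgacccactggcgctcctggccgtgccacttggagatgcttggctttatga
Scnn1b: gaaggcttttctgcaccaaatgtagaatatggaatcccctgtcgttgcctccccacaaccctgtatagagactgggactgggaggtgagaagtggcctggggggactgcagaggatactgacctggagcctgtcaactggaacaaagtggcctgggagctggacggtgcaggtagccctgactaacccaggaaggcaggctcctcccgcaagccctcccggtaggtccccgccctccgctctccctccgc
Atp1b1: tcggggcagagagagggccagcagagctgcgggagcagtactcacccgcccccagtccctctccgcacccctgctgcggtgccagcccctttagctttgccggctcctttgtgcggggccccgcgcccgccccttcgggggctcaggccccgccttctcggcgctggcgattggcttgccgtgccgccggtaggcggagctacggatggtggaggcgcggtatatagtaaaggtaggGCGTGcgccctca
Cftr: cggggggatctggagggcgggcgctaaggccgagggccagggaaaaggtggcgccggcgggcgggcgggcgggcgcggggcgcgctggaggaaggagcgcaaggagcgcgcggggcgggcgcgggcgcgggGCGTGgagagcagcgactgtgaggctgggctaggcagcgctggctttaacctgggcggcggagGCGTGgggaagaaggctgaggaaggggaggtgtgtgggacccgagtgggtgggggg
The Ano1 window lies inside the annotated gene and covers an Ano1 exon, so it is not counted as a promoter. None of the other 6 windows held TTCNNNGAA. GCGTG occurred at 2 places before Cftr, with its first base 119 and 56 bases before the start, and at 1 place before Atp1b1, with its first base 13 bases before it, so 2 of 6 windows held the motif. The Slc26a4, Scnn1g, Scnn1b and Slc26a9 windows held neither motif. These are matches of letters and do not show binding, and the absence of a match says only that these letters are not in these windows.

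Slc26a4 was the member with the largest response to cockroach extract, and it rose in both genotypes. The gene (chromosome 12, 31519827 to 31559969 on the minus strand of GRCm38) lies 3.94 Mb from Ahr on the same chromosome. In AhRfl/fl cells with PBS it was low, at 0.893, 0.951 and 0.915 CPM in replicates 1 to 3 (64 to 71 reads), and with CRE it had 4.78, 7.61 and 7.98 CPM (384 to 595 reads). The Sftpc-Cre;AhRfl/fl cells had 1.09, 1.84 and 2.31 CPM with PBS (86 to 170 reads) and 13.0, 21.7 and 29.4 CPM with CRE (1025 to 2243 reads). No library with CRE overlapped a library with PBS in either genotype, and within each treatment no Sftpc-Cre;AhRfl/fl library overlapped an AhRfl/fl library. Replicate 1, which had the highest leukocyte markers, was the lowest in each of the 4 groups, and the part of this in the result was not tested.

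The means were 0.920 ± 0.0291 and 6.79 ± 1.75 CPM (SD, n = 3) without and with CRE in AhRfl/fl cells, a 7.37-fold rise (95% interval 4.25 to 12.8, log2 fold change 2.88 ± 0.36 SE, edgeR quasi-likelihood adjusted p = 0.00902). The means of the Sftpc-Cre;AhRfl/fl cells were 1.74 ± 0.613 and 21.4 ± 8.20 CPM, a 12.2-fold rise (95% interval 6.97 to 21.5, log2 fold change 3.61 ± 0.37 SE, adjusted p = 0.00393). Slc26a4 was the only member called at an adjusted p under 0.05 in these fits, 1 of 9 members. Of all genes 0.218% were called higher in AhRfl/fl and 0.228% in Sftpc-Cre;AhRfl/fl cells. From these same libraries the study already names Slc26a4 as higher with CRE in AhRfl/fl cells and higher between genotypes with CRE. Shares of members that include Slc26a4, here and below, are therefore partly fixed by the choice of members and are not independent support. The call in AhRfl/fl cells was lost when any 1 of the 3 AhRfl/fl PBS libraries was left out (adjusted p = 0.0519, 0.0614 and 0.0708 by edgeR), with the log2 fold change between 2.75 and 3.08 over all libraries left out in turn. The call in Sftpc-Cre;AhRfl/fl cells was lost when only the 6 libraries of that comparison were fitted (log2 fold change 3.61, edgeR adjusted p = 0.0582). Without replicate 1 of every group, a comparison added after the data were seen, the log2 fold changes were 3.06 and 3.62 with edgeR adjusted p = 0.00688 and 0.00351.

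**Figure D1:**
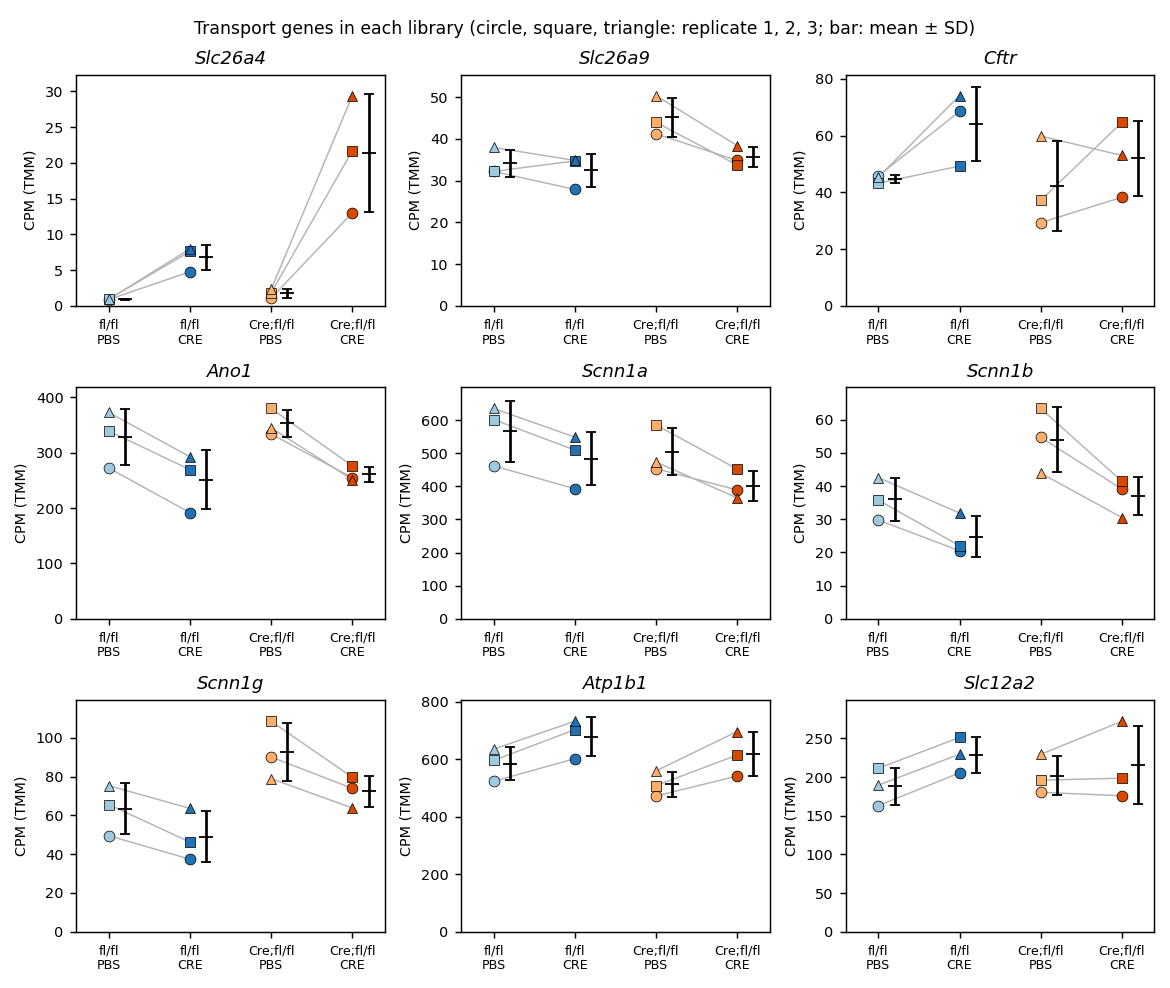
Level of each of the 9 transport genes in every library, in CPM after TMM scaling, with 1 panel per gene, the 4 groups along the horizontal axis (fl/fl for AhRfl/fl, Cre;fl/fl for Sftpc-Cre;AhRfl/fl), grey lines joining libraries of the same replicate number, and bars for the mean ± SD. In the Slc26a4 panel the libraries with CRE lie at 4.78 to 7.98 CPM (AhRfl/fl) and 13.0 to 29.4 CPM (Sftpc-Cre;AhRfl/fl), above all libraries with PBS, and in the Ano1, Scnn1a, Scnn1b and Scnn1g panels every grey line runs downward from PBS to CRE.

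Between the genotypes Slc26a4 was higher in Sftpc-Cre;AhRfl/fl cells under both treatments, but neither difference passed the adjusted threshold. With CRE the fold was 3.15 (95% interval 1.87 to 5.29, log2 fold change 1.65 ± 0.34 SE, unadjusted p = 5.4e-04 and adjusted p = 0.168 by edgeR), and with PBS it was 1.89 (1.12 to 3.20, log2 fold change 0.92 ± 0.34 SE, adjusted p = 0.511 by edgeR). DESeq2 called the difference with CRE (log2 fold change 1.66, adjusted p = 4.3e-04) and not the one with PBS. The study's own rule for a changed gene, an unadjusted p under 0.05 with an absolute log2 fold change over 0.5 in limma, was met under both treatments, as it was by 3.42% of all genes with CRE and 4.10% with PBS. The response to CRE itself was 1.66 times larger in Sftpc-Cre;AhRfl/fl cells, with an interval that included no difference (0.801 to 3.44, log2 difference 0.73 ± 0.48 SE, edgeR unadjusted p = 0.154 and adjusted p = 1.00), and edgeR called 0% of all genes in this comparison. With libraries paired by replicate number that log2 difference was 0.75 (edgeR unadjusted p = 0.00957 and adjusted p = 0.494). The PBS and CRE comparisons of a genotype share libraries with the comparisons between genotypes, so these values are not independent of each other.

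Slc26a9, a chloride transporter of the same family, had no call in either genotype. Its values were 32.2, 32.2 and 37.9 CPM with PBS and 27.9, 34.7 and 34.8 CPM with CRE in AhRfl/fl cells (means 34.1 ± 3.32 and 32.5 ± 3.98, log2 fold change −0.07, 95% interval −0.33 to 0.19). Cells of the Sftpc-Cre;AhRfl/fl genotype had 41.2, 43.9 and 50.3 CPM with PBS and 34.8, 33.7 and 38.4 CPM with CRE (means 45.2 ± 4.69 and 35.6 ± 2.44, log2 fold change −0.34 ± 0.12 SE, edgeR adjusted p = 0.567). The 2 sets of libraries did not overlap in the Sftpc-Cre;AhRfl/fl cells and did in the AhRfl/fl cells, but the genotype difference of the response did not pass (log2 difference −0.27, 95% interval −0.63 to 0.09, edgeR adjusted p = 1.00). With PBS every Sftpc-Cre;AhRfl/fl library was above every AhRfl/fl library (log2 fold change 0.41 ± 0.12 SE, edgeR unadjusted p = 0.00523 and adjusted p = 0.366), and with CRE the libraries overlapped. The gene lies on chromosome 1, 131744022 to 131771504 on the plus strand of GRCm38.

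Cftr encodes the chloride and bicarbonate channel mutated in cystic fibrosis (chromosome 6, 18170687 to 18322768, plus strand). It had 45.8, 43.2 and 45.3 CPM with PBS and 68.5, 49.3 and 74.1 CPM with CRE in AhRfl/fl cells, so that all 3 libraries with CRE were above those with PBS (means 44.8 ± 1.37 and 63.9 ± 13.0, log2 fold change 0.51 ± 0.26 SE). This did not pass the test (edgeR adjusted p = 0.590). Sftpc-Cre;AhRfl/fl cells had 29.3, 37.2 and 59.8 CPM with PBS and 38.3, 64.7 and 53.0 CPM with CRE, and the groups overlapped (means 42.1 ± 15.8 and 52.0 ± 13.2, log2 fold change 0.30, 95% interval −0.27 to 0.88). The spread of Cftr among Sftpc-Cre;AhRfl/fl libraries with PBS was wider than among AhRfl/fl libraries with PBS, and neither genotype comparison passed (log2 fold changes −0.09 and −0.30 with PBS and CRE, 95% intervals −0.66 to 0.49 and −0.87 to 0.27). An antisense gene, Gm15592, overlaps its exons with 127 reads beside 46135 of Cftr over the 12 libraries, and it was not stated whether counting used strand.

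Ano1 encodes the calcium-activated chloride channel TMEM16A (chromosome 7, 144588549 to 144751974, minus strand). In AhRfl/fl cells its values were 272, 339 and 373 CPM with PBS and 192, 269 and 293 CPM with CRE. The other genotype, Sftpc-Cre;AhRfl/fl, had 334, 380.0 and 345 CPM with PBS and 255, 276 and 252 CPM with CRE. The groups overlapped in the AhRfl/fl cells and did not in the Sftpc-Cre;AhRfl/fl cells, and in both genotypes each library with CRE was below the library with PBS of the same replicate number. Over group means the log2 fold changes were −0.39 ± 0.15 and −0.44 ± 0.15 SE (edgeR adjusted p = 0.456 and 0.605), and with libraries paired by replicate number they were −0.40 ± 0.045 and −0.43 ± 0.045 SE (edgeR adjusted p = 0.00842 and 0.00651). These paired values correspond to folds of 0.760 and 0.740. Between genotypes Ano1 did not differ beyond its spread (log2 fold changes 0.10 with PBS and 0.05 with CRE, 95% intervals −0.23 to 0.44 and −0.28 to 0.39).

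The 3 ENaC subunits were lower with CRE in 3 of 3 pairs of libraries in each genotype. Scnn1a, the alpha subunit without which no channel forms (chromosome 6, 125320659 to 125344943, plus strand), had 462, 602 and 635 CPM with PBS and 393, 509.8 and 549 CPM with CRE in AhRfl/fl cells. In Sftpc-Cre;AhRfl/fl cells it had 454, 586 and 474 CPM with PBS and 389, 453 and 365 CPM with CRE, and these last 3 libraries were all below the PBS ones. The levels of replicate 1 were lowest in both AhRfl/fl groups, so that the groups overlapped there although each library with CRE was below its pair.

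Scnn1b, the beta subunit (chromosome 7, 121865038 to 121918514, plus strand), had 29.8, 35.7 and 42.6 CPM with PBS and 20.5, 22.0 and 31.9 CPM with CRE in AhRfl/fl cells, against 54.7, 63.4 and 43.9 CPM with PBS and 39.0, 41.4 and 30.5 CPM with CRE in Sftpc-Cre;AhRfl/fl cells. Scnn1g, the gamma subunit, lies 96563 bases before Scnn1b (chromosome 7, 121734479 to 121768475, plus strand). It had 49.5, 65.6 and 75.3 CPM with PBS and 37.4, 46.2 and 63.6 CPM with CRE in AhRfl/fl cells, against 90.1, 109 and 79.0 CPM with PBS and 73.9, 79.7 and 63.8 CPM with CRE in Sftpc-Cre;AhRfl/fl cells. The order of the replicates was the same for Scnn1b and Scnn1g in every group, and it differed between genotypes, with replicate 3 highest in AhRfl/fl and lowest in Sftpc-Cre;AhRfl/fl cells.

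Over group means none of these 3 passed: the log2 fold changes with CRE were −0.23 and −0.33 for Scnn1a, −0.54 and −0.55 for Scnn1b and −0.37 and −0.35 for Scnn1g in AhRfl/fl and Sftpc-Cre;AhRfl/fl cells, with edgeR adjusted p between 0.432 and 0.875. Paired by replicate number, all 3 subunits fell in both genotypes. In AhRfl/fl cells Scnn1b fell by 0.55 on the log2 scale (edgeR adjusted p = 0.0131), Scnn1g by 0.38 (0.0288) and Scnn1a by 0.23 (0.0342). In Sftpc-Cre;AhRfl/fl cells Scnn1b fell by 0.54 (edgeR adjusted p = 0.0145), Scnn1g by 0.35 (0.0493) and Scnn1a by 0.32 (0.0131). The folds of the paired fit were 0.683 to 0.854 in AhRfl/fl and 0.687 to 0.799 in Sftpc-Cre;AhRfl/fl cells. In the fit over group means, the genotype differences of the 3 responses were between −0.10 and 0.02 on the log2 scale, with 95% intervals that reached from −0.65 to 0.66.

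Atp1b1, whose product brings the Na,K-ATPase pump to the membrane, was the only sodium transport member that was higher with CRE in 3 of 3 pairs in each genotype. It had 523, 595 and 635 CPM with PBS and 602, 702 and 732 CPM with CRE in AhRfl/fl cells, and 472, 508 and 559 CPM with PBS and 541, 614 and 696 CPM with CRE in Sftpc-Cre;AhRfl/fl cells. The groups overlapped in both genotypes, although each library with CRE was above the library with PBS of its number. Over group means the log2 fold changes were 0.22 and 0.27 (edgeR adjusted p = 0.613 and 0.751), and paired by replicate number they were 0.22 and 0.26 (edgeR adjusted p = 0.0252 and 0.0149). Atp1b1 (chromosome 1, 164437109 to 164458355, minus strand) shares exonic bases with Nme7 on the other strand, which had 17201 reads beside 544627 of Atp1b1 over the 12 libraries.

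Slc12a2, the cotransporter that loads chloride into secreting cells (chromosome 18, plus strand), had 163, 211 and 189.5 CPM with PBS and 205, 251 and 229.5 CPM with CRE in AhRfl/fl cells. It had 180.2, 196 and 229 CPM with PBS and 176, 198 and 272 CPM with CRE in Sftpc-Cre;AhRfl/fl cells. Each AhRfl/fl pair was higher with CRE, and 2 of 3 Sftpc-Cre;AhRfl/fl pairs were. No fit called it: the log2 fold changes were 0.28 and 0.09 over group means (edgeR adjusted p = 0.644 and 1.00), and the paired value in AhRfl/fl cells, 0.29, had an edgeR adjusted p of 0.0502.

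**Figure D2:**
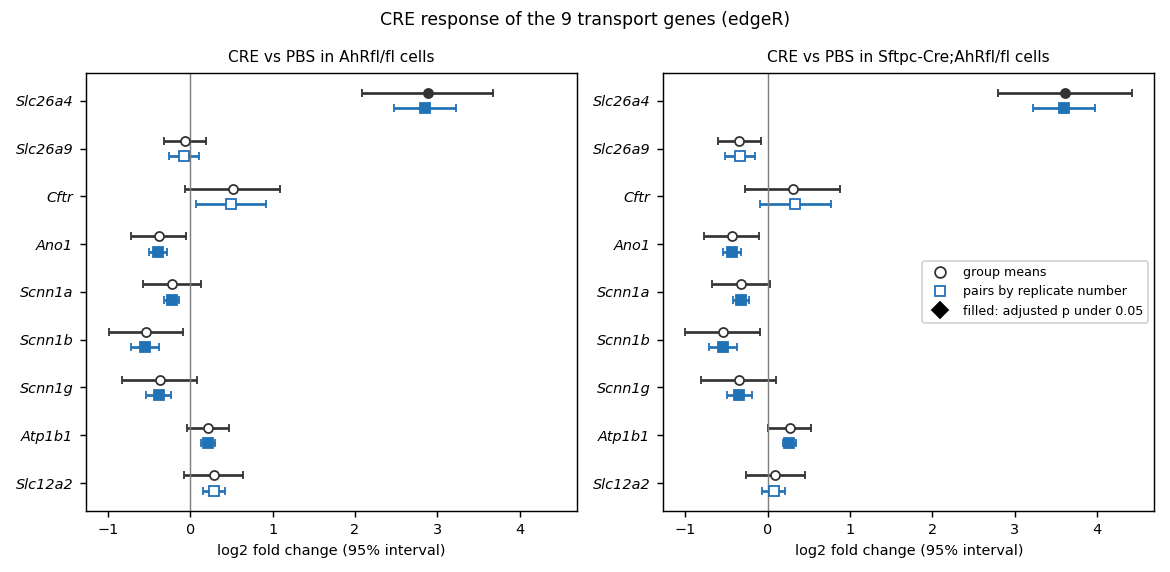
Log2 fold change with CRE against PBS of the 9 transport genes in AhRfl/fl (left) and Sftpc-Cre;AhRfl/fl cells (right), by edgeR over group means (circles) and with libraries paired by replicate number (squares), with 95% intervals and filled symbols where the adjusted p was under 0.05. Slc26a4 stands at 2.88 and 3.61, filled in both fits, while Ano1, Scnn1a, Scnn1b, Scnn1g and Atp1b1 are filled only in the paired fit, where their intervals are narrower at nearly the same log2 fold change.

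In the paired fit 6 of the 9 members were thus called in each genotype, Slc26a4 and Atp1b1 higher and Ano1, Scnn1a, Scnn1b and Scnn1g lower, where the same fit called 3.63% of all genes in AhRfl/fl and 2.13% in Sftpc-Cre;AhRfl/fl cells. Most of these calls were lost without the libraries of the other genotype. With the 6 libraries of a single genotype, a fit added after the data were seen, the pairs gave 1 call among the members in AhRfl/fl cells (Slc26a4, log2 fold change 2.85, edgeR adjusted p = 0.0211) beside 0.820% of all genes. In Sftpc-Cre;AhRfl/fl cells they gave 3, beside 0.845% of all genes: Slc26a4 at 3.60 (edgeR adjusted p = 0.00286), Ano1 at −0.43 (0.0326) and Scnn1b at −0.54 (0.0413). By the study's rule 2 members were changed by CRE in each genotype, Slc26a4 higher and Scnn1b lower, beside 4.11% of all genes in AhRfl/fl and 3.38% in Sftpc-Cre;AhRfl/fl cells. The groups did not overlap for 2 members in AhRfl/fl cells (Slc26a4 and Cftr, both higher), where 16.5% of all genes did not overlap. In Sftpc-Cre;AhRfl/fl cells they did not overlap for 5 (Slc26a4 higher, and Slc26a9, Ano1, Scnn1a and Scnn1b lower), where the share of all genes was 11.8%.

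The summed markers of alveolar type I cells were lower with CRE in both genotypes, although edgeR called none of the 6 (smallest adjusted p = 0.190 and 0.499). At an unadjusted p under 0.05 there were 3 in each genotype, beside 9.36% of all genes in AhRfl/fl and 6.48% in Sftpc-Cre;AhRfl/fl cells. The study's rule took 2 and 3, all lower, beside 4.11% and 3.38% of all genes in either direction. The 6 markers (Ager, Hopx, Pdpn, Rtkn2, Cav1 and Akap5) summed to 355 to 422 FPKM with PBS and 233 to 265 FPKM with CRE in AhRfl/fl cells, and to 348 to 494 FPKM with PBS and 237 to 343 FPKM with CRE in Sftpc-Cre;AhRfl/fl cells. Ager, the highest of them, had a log2 fold change of −0.96 and −0.70 (edgeR adjusted p = 0.194 and 0.575), while Pdpn had medians of 29.8 FPKM with PBS and 28.1 FPKM with CRE and Akap5 of 14.5 and 15.8 FPKM in AhRfl/fl cells. None of the 6 markers was at 0, and the part of these values in the lower ENaC and Ano1 levels was not tested. Foxi1, the defining factor of ionocytes, an airway cell type rich in Cftr, had 0 reads in 3 groups and 4 reads in Sftpc-Cre;AhRfl/fl cells with PBS. The other ionocyte markers had reads in every group, from 16 to 38 for Moxd1 to 6037 to 9573 for Atp6v1c2. Ascl3 had 188 to 286 reads per group.

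Between the genotypes the beta and gamma subunits of ENaC were higher in Sftpc-Cre;AhRfl/fl cells while the alpha subunit was not, although no member passed the adjusted threshold. Scnn1b was 1.50-fold higher with PBS (95% interval 1.10 to 2.05, edgeR adjusted p = 0.489) and 1.49-fold higher with CRE (1.09 to 2.04, adjusted p = 0.754). Scnn1g was 1.46-fold higher with PBS (1.06 to 2.00, edgeR adjusted p = 0.523) and 1.48-fold higher with CRE (1.08 to 2.03, adjusted p = 0.763). For Scnn1a the folds were 0.890 and 0.832, with intervals of 0.697 to 1.14 and 0.651 to 1.06.

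With PBS, 4 members had all Sftpc-Cre;AhRfl/fl libraries above all AhRfl/fl libraries (Slc26a4, Slc26a9, Scnn1b and Scnn1g), and with CRE 2 did (Slc26a4 and Scnn1g), where 6.60% and 5.57% of all genes did so. The edgeR test called 0 of 9 members in either comparison, beside 0.150% of all genes with PBS and 0.170% with CRE, and 4 and 3 members had an unadjusted p under 0.05, beside 8.37% and 5.95% of all genes. By the study's rule Slc26a4, Scnn1b and Scnn1g were higher under both treatments, 3 of 9 beside 2.34% of all genes called higher with PBS and 1.72% with CRE. Without replicate 1 of every group 1 of the 9 members met the study's rule in each of these comparisons. Ciliated cell markers (Foxj1, Tppp3, Dnah5, Rsph1 and Cfap126) summed to 72.4 to 115 FPKM in Sftpc-Cre;AhRfl/fl and 55.0 to 70.5 FPKM in AhRfl/fl cells with PBS, and to 70.0 to 115 and 46.9 to 70.4 FPKM with CRE, where the genotypes overlapped. All 5 were higher in Sftpc-Cre;AhRfl/fl cells under both treatments (median log2 fold change 0.47 with PBS and 0.55 with CRE). The edgeR test called none (smallest adjusted p = 0.395 and 0.786), with 1 and 3 at an unadjusted p under 0.05, beside 8.37% and 5.95% of all genes. The study's rule took 1 and 4 as higher, beside 2.34% and 1.72% of all genes. Neutrophil markers were lower in Sftpc-Cre;AhRfl/fl cells for 5 of 5 genes under both treatments (median log2 fold change −1.44 with PBS and −1.36 with CRE), and edgeR called none (smallest adjusted p = 0.628 and 0.925, and 0 at an unadjusted p under 0.05). Their sums overlapped between the genotypes, at 2.74 to 16.8 against 6.59 to 45.3 FPKM with PBS and 2.06 to 15.6 against 11.5 to 41.7 FPKM with CRE. No marker of either list was at 0, and the part of these markers in the genotype differences was not tested.

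**Figure D3:**
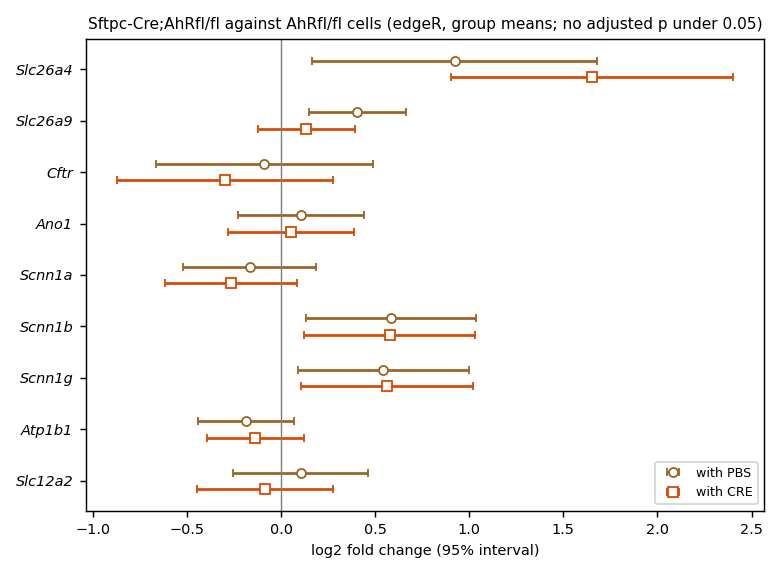
Log2 fold change of Sftpc-Cre;AhRfl/fl against AhRfl/fl cells for the 9 transport genes, with PBS (circles) and with CRE (squares), by edgeR over group means with 95% intervals. The intervals of Slc26a4, Scnn1b and Scnn1g lie above 0 under both treatments and that of Slc26a9 with PBS only, and no adjusted p was under 0.05.

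The difference between the subunits was also read as a ratio within each library, which does not depend on the scaling between libraries. These ratios were chosen after the subunits' values had been seen, so they restate those values within each library and are given without a test. Per length, Scnn1a was 9.90, 10.7 and 9.52 times Scnn1b in AhRfl/fl cells with PBS and 5.29, 5.89 and 6.88 times in Sftpc-Cre;AhRfl/fl cells with PBS. With CRE the ratio was 12.2, 14.8 and 11.0 in AhRfl/fl and 6.36, 6.96 and 7.63 in Sftpc-Cre;AhRfl/fl cells. The genotypes did not overlap under either treatment, with means of 10.1 ± 0.629 against 6.02 ± 0.804 with PBS and 12.7 ± 1.94 against 6.98 ± 0.640 with CRE (SD, n = 3).

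The ratio of Scnn1a to Scnn1g showed the same split, at 6.50 ± 0.348 against 3.97 ± 0.353 with PBS and 7.28 ± 0.914 against 4.02 ± 0.184 with CRE. These 4 genotype differences were between −0.72 and −0.85 on the log2 scale. The ratio of Scnn1g to Scnn1b was 1.55 ± 0.0765 in AhRfl/fl and 1.51 ± 0.0668 in Sftpc-Cre;AhRfl/fl cells with PBS and 1.74 ± 0.124 and 1.73 ± 0.0943 with CRE, and the genotypes overlapped.

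**Figure D4:**
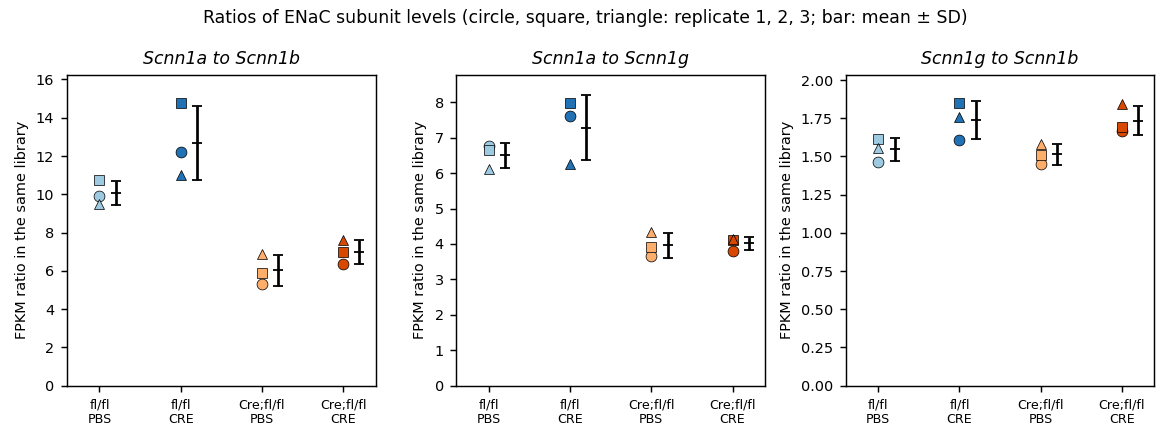
Ratio of deposited FPKM between ENaC subunits within each library (alpha to beta, alpha to gamma, gamma to beta), with the 4 groups along the horizontal axis, symbols for the 3 replicates and bars for the mean ± SD. In the first 2 panels every Sftpc-Cre;AhRfl/fl library (5.29 to 7.63 and 3.65 to 4.34) lies below every AhRfl/fl library (9.52 to 14.8 and 6.11 to 7.98), while in the third panel the genotypes overlap.

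Per length, the pump subunit and the alpha subunit of ENaC stood far above the pendrin gene. Over the 12 libraries the mean levels were 174 FPKM for Atp1b1, 106 for Scnn1a, 42.9 for Ano1, 20.9 for Scnn1g, 17.1 for Slc12a2, 13.0 for Scnn1b, 6.33 for Slc26a9, 5.85 for Cftr and 2.21 for Slc26a4. Within each group the libraries of Atp1b1, Scnn1a and Ano1 overlapped neither each other nor the member ranked next. Scnn1g and Slc12a2 overlapped in 3 groups and changed order between the treatments in AhRfl/fl cells, and Slc12a2 and Scnn1b overlapped in both PBS groups.

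Slc26a4 had the lowest level of the 9 in 3 groups, at 0.262 ± 0.00279 FPKM (AhRfl/fl, PBS), 1.94 ± 0.464 FPKM (AhRfl/fl, CRE) and 0.507 ± 0.171 FPKM (Sftpc-Cre;AhRfl/fl, PBS). In Sftpc-Cre;AhRfl/fl cells with CRE it reached 6.11 ± 2.19 FPKM (3.86, 6.24 and 8.23 FPKM in the 3 libraries). There it did not differ beyond the spread from Slc26a9 (6.11 ± 0.311 FPKM) or Cftr (5.98 ± 1.45 FPKM).

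**Figure D5:**
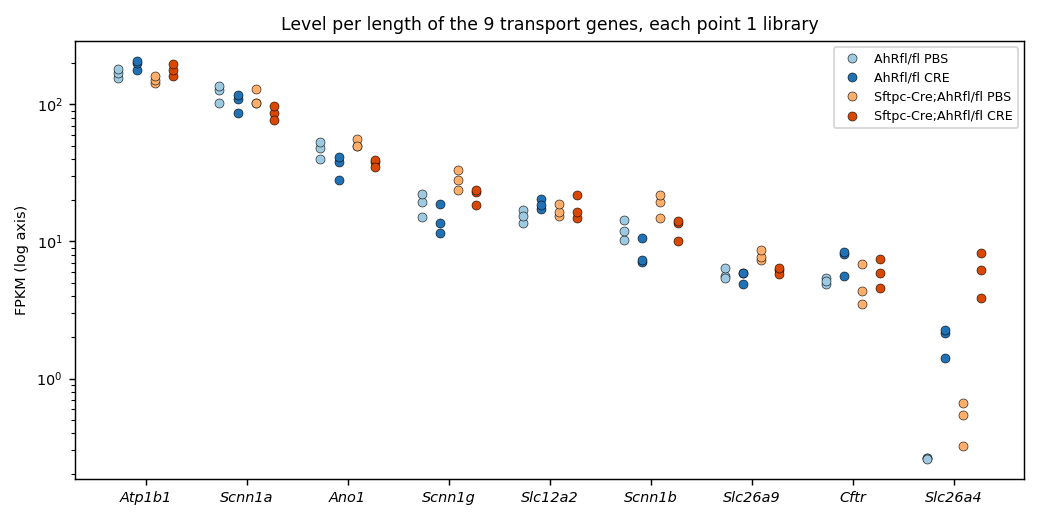
Deposited FPKM of the 9 transport genes on a log axis, with each point 1 library and the 4 groups in separate colours, ordered by the mean over the 12 libraries from Atp1b1 (174 FPKM) to Slc26a4 (2.21 FPKM). Slc26a4 spans 0.259 to 8.23 FPKM, and its Sftpc-Cre;AhRfl/fl libraries with CRE (3.86 to 8.23 FPKM) reach the range of Slc26a9 and Cftr.

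Other genes of epithelial ion and water transport were described from a list of 76, of which 68 passed the filter on low counts. None was called by edgeR over group means in any comparison, with smallest adjusted p of 0.119 and 0.134 for CRE in AhRfl/fl and Sftpc-Cre;AhRfl/fl cells and of 0.261 and 0.728 between genotypes with PBS and CRE. At an unadjusted p under 0.05 there were 8, 6, 8 and 7 of the 68 in these comparisons, beside 9.36%, 6.48%, 8.37% and 5.95% of all genes, and DESeq2 called 2, 1, 1 and 0. The study's rule took 2, 2, 1 and 1 of the 68, beside larger shares of all genes (4.11%, 3.38%, 4.10% and 3.42%). The median log2 fold changes of the 68 were −0.02, −0.04, 0.01 and −0.02, beside medians over all genes that rounded to 0. Among the genes with the highest level in their group of the list were Slc6a14, an amino acid transporter driven by sodium and chloride (291 FPKM over the 12 libraries), Ezr, the membrane linker ezrin (224 FPKM), Prss8, the protease that activates ENaC (77.5 FPKM), the water channel gene Aqp5 (55.8 FPKM), the potassium channel subunit gene Kcne2 (45.3 FPKM), the anion exchanger gene Slc4a2 (12.2 FPKM) and the chloride and proton exchanger gene Clcn5 (11.8 FPKM).

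Slc4a4, which brings sodium with bicarbonate across the basal membrane, was the only gene of the list that met the study's rule in the same direction in both genotypes. It had 78.6, 76.7 and 107 CPM with PBS and 128, 167 and 162 CPM with CRE in AhRfl/fl cells (log2 fold change 0.80), and 125, 98.8 and 84.2 CPM with PBS and 151, 138 and 156 CPM with CRE in Sftpc-Cre;AhRfl/fl cells (log2 fold change 0.53). The groups did not overlap in either genotype. Aqp5, named after its values were seen as are Lrrc8c, Nedd4 and Kcne3 below, had 163, 229 and 205 CPM with PBS and 94.0, 139 and 124 CPM with CRE in AhRfl/fl cells, where it met the rule (log2 fold change −0.75 by limma). The volume-regulated anion channel subunit gene Lrrc8c met it in Sftpc-Cre;AhRfl/fl cells (99.7, 100.2 and 94.5 CPM with PBS, 74.0, 67.7 and 65.4 CPM with CRE).

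Between genotypes Nedd4, a ubiquitin ligase, met the rule with PBS (580 ± 22.0 CPM in AhRfl/fl and 318 ± 37.7 CPM in Sftpc-Cre;AhRfl/fl cells), but with CRE it varied from 261 to 670 CPM within AhRfl/fl cells. Kcne3 met it with CRE at levels under 1 CPM (0.855 ± 0.0965 and 0.406 ± 0.184 CPM). Paired by replicate number, edgeR called 7 genes of the list in AhRfl/fl cells (Slc4a4 higher, and Aqp5, Aqp1, Lrrc8c, Kcne2, Slc6a14 and Tmprss2 lower) and 4 in Sftpc-Cre;AhRfl/fl cells (Aqp5, Lrrc8c, Slc6a14 and Tmprss2, all lower), with log2 fold changes between −0.75 and 0.81. The same fit called 3.63% and 2.13% of all genes. With pairs within the 6 libraries of a single genotype, only Aqp5 remained in AhRfl/fl cells and only Slc6a14 and Lrrc8c in Sftpc-Cre;AhRfl/fl cells.

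The genes most like Slc26a4 were sought by the root mean square difference between log2 CPM values centred over the 12 libraries, among 20611 other genes. The nearest were U90926 (0.80), Pnmal1 (0.83), Cxcl2 (0.90), Zc3h12a (0.94) and Duox2 (1.01), where the median over all genes was 1.80 and a gene with no variation would have 1.76. As they were chosen for their likeness to a gene that rose with CRE, their values are given without a test. U90926 had 1.06 ± 0.161 CPM with PBS and 5.95 ± 1.13 CPM with CRE in AhRfl/fl and 1.34 ± 0.400 and 7.85 ± 1.77 CPM in Sftpc-Cre;AhRfl/fl cells. The neutrophil chemokine gene Cxcl2 had 3.92 ± 2.44 and 41.8 ± 11.7 CPM and, in the other genotype, 3.60 ± 1.19 and 41.1 ± 9.50 CPM, and Zc3h12a, which encodes an RNA-degrading regulator of inflammation, had 7.53 ± 1.73 and 38.7 ± 6.38 CPM and 9.37 ± 3.32 and 36.8 ± 3.06 CPM. With CRE these 3 genes overlapped between genotypes, as did Duox2, while Slc26a4 and the low Pnmal1 did not. Duox2, an oxidase of the epithelial surface, was at 0.194 ± 0.168 and 1.93 ± 0.909 CPM in AhRfl/fl and 0.194 ± 0.0784 and 1.42 ± 0.782 CPM in Sftpc-Cre;AhRfl/fl cells, and Pnmal1 was at 0.218 CPM or less in every group mean.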

How the data were processed

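Poly(A) RNA of 12 libraries was sequenced by a stranded protocol. Per the labels and the study's methods, the authors aligned reads to GRCm38 with STAR 2.7.2b, annotated the alignments with Partek and RefSeq, and took counts from Salmon; how these became whole numbers and how FPKM was computed are not given in the sources used here. The authors deposited counts and FPKM (fragments scaled by gene length and library size) for 55450 genes, and all identifiers matched GENCODE M21. Columns of the authors' own comparisons were not used. Members and gene lists were chosen with earlier results of these data known.

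Counts were fitted with edgeR 4.0.16 (quasi-likelihood test, TMM, filterByExpr with a minimum count of 10, 4 group means over 12 libraries, Benjamini-Hochberg adjusted p under 0.05) in R 4.3.3. For the study's rule, log2 CPM values (prior count 2) were tested with limma 3.58.1. Named were all 9 members, transport genes called by edgeR or meeting the study's rule in both CRE comparisons, the highest gene of each list, and the 5 genes nearest Slc26a4; 1 of the genes this rule names is not reported here. Alternatives were DESeq2 1.42.0, no filter, other library sets, leaving out each replicate, and a replicate block; 2 of them (the block within 6 libraries, and replicates 2 and 3 alone) were chosen after seeing the data. The script was tested on simulated counts.

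Groups share replicate numbers in the labels. Deviations from group means over 11476 genes with a mean of at least 5 CPM correlated between libraries of the same number (replicates 1 to 3) at 0.727, 0.395 and 0.629 for the AhRfl/fl PBS and CRE groups, 0.592, 0.527 and 0.337 for the Sftpc-Cre;AhRfl/fl groups and 0.383, 0.13 and 0.12 for the genotypes with PBS (up to 0.206 between libraries of different numbers). Between genotypes with PBS, replicates 2 and 3 correlated across numbers at 0.206 and 0.123, so only replicate 1 stood out with its own number. With CRE the genotypes gave 0.364, −0.0362 and 0.07, so there the libraries share only a number. The pairing thus comes from the data and not from a label. Total counts differed by under 1.5 times, and precision is limited by 3 libraries per group.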

Additional observations from a re-analysis of the deposited data

How the results depend on the processing

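The log2 fold change of Slc26a4 with CRE kept its direction under all alternatives run and passed the threshold in 10 of 13 for AhRfl/fl and 12 of 13 for Sftpc-Cre;AhRfl/fl cells. It ranged from 2.75 to 3.08 and from 3.31 to 3.87 over the libraries left out in turn, and fitting only the libraries compared gave 3.61 (adjusted p = 0.0582) in Sftpc-Cre;AhRfl/fl cells. Between genotypes it passed by the study's rule (0.84 with PBS, 1.61 with CRE) and by DESeq2 with CRE (1.66). The cause of these shifts was not tested.

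In the order CRE in AhRfl/fl, CRE in Sftpc-Cre;AhRfl/fl, genotype with PBS and genotype with CRE, the edgeR fit called 1, 1, 0 and 0 members, and the study's rule 2, 2, 3 and 3. DESeq2 called 1 member between genotypes with CRE, and the fit of only the libraries compared called 0 in Sftpc-Cre;AhRfl/fl cells. Leaving out libraries gave 0 to 1, 1 to 1, 0 to 0 and 0 to 0 members by edgeR and 1 to 4, 1 to 3, 0 to 3 and 1 to 3 by the study's rule (0 to 1 for the genotype difference of the response). The study's rule met by replicates 2 and 3 alone gave 1 member in each of the 4. Of the other transport genes the study's rule took 2, 2, 1 and 1, and DESeq2 took 2, 1, 1 and 0 (with PBS the gene was Wnk1).

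The replicate block, which pairs libraries by number, raised the members called to 6 and 6 for CRE and the other transport genes to 7 and 4. Restricted to the 6 libraries compared, the replicate block gave 3 members in Sftpc-Cre;AhRfl/fl cells and 1 and 2 other transport genes. By the study's rule with the block, 1 member (against 0) met the genotype difference. It changed no call of a member between genotypes. With CRE, where the libraries share only a number, the block moved the genes called between genotypes from 35 to 22, and not every library correlated best with its own number.

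Over all genes edgeR called 48, 54, 31 and 35, against 848, 696, 846 and 705 by the study's rule, 414, 255, 234 and 171 by DESeq2, and 748, 439, 15 and 22 with the replicate block. The block within 6 libraries called 157, 163, 0 and 0. Only the libraries compared gave 13 for CRE in Sftpc-Cre;AhRfl/fl cells and 15 between genotypes with PBS, and replicates 2 and 3 alone gave 19 between genotypes with CRE. Leaving out libraries gave 19 to 47, 23 to 62, 15 to 26 and 21 to 30. For the genotype difference of the response edgeR called 0 (763 at an unadjusted p under 0.05), the study's rule 475, DESeq2 23, replicates 2 and 3 alone 4, and leaving out libraries 0 to 2. Without the filter the study's rule took 1332, 1230, 1310, 1221 and 887 genes, and with the block 1290 and 1080 for CRE and 785 for the genotype difference.

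Small differences changed sign. For the genotype difference of the response, Scnn1b was 0.0096 by the study's rule and 0.0094 with the replicate block, and Scnn1g was −0.038 with replicates 2 and 3 alone. With those libraries Cftr was 0.14 between genotypes with PBS and Ano1 was −0.10 with CRE. Over the libraries left out, Slc26a9 ranged from −0.12 to 0.028 for CRE in AhRfl/fl cells and Slc12a2 from −0.11 to 0.22 for CRE in Sftpc-Cre;AhRfl/fl cells. Between genotypes Cftr ranged from −0.43 to 0.12 and Ano1 from −0.013 to 0.21 with PBS, and Ano1 from −0.11 to 0.18 and Slc12a2 from −0.29 to 0.041 with CRE. For the genotype difference of the response Cftr ranged from −0.42 to 0.13, Ano1 from −0.21 to 0.073, Scnn1a from −0.23 to 0.028, Scnn1b from −0.14 to 0.21, Scnn1g from −0.14 to 0.25 and Atp1b1 from −0.044 to 0.14.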

Other observations

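The 7 AT2 markers summed to 3179.8 to 6237 FPKM over the 12 libraries, most of it from Sftpc. The 4 club cell markers summed to 7395 to 15786 FPKM, nearly all of it from Scgb1a1. Alveolar type I markers summed to 233 to 494 FPKM and ciliated cell markers to 46.9 to 115 FPKM. Alveolar macrophage markers summed to 4.89 to 46.2 FPKM, neutrophil markers to 2.06 to 45.3 FPKM, fibroblast markers to 8.29 to 31.1 FPKM and endothelial markers to 5.04 to 12.6 FPKM. Goblet cell markers summed to 0.378 to 0.792 FPKM, with at most 0.0184 FPKM for the mucin gene Muc5ac. Ionocyte markers summed to 14.2 to 24.7 FPKM, of which Atp6v1c2 was the highest.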
